A study of Mus musculus with 18 samples.

Results

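The genes described here make, phosphorylate or consume nicotinamide adenine dinucleotide (NAD) in mouse dermis. The 8 genes were chosen by name from the 32285 features of the deposited matrices. Nampt, Nmrk1 and Nadk act in NAD salvage and phosphorylation, Sirt1, Sirt2, Sirt3 and Sirt6 encode NAD-dependent deacylases, and Parp1 encodes a NAD-consuming polymerase. The rule used names alone, but the genes were picked with earlier results of these data known. All 8 passed the filter on low counts in each comparison.

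Dorsal dermis of young adult wild-type (WT) male C57BL/6J mice kept under equal periods of light and dark was collected at 6 zeitgeber times (ZT, hours after lights on), with 3 mice at each time and 1 library per mouse. The 18 mice shared genotype, sex and strain and received no treatment, so zeitgeber time was the condition that differed by design. The skin was in the resting phase of the hair cycle (telogen), its fat was scraped away, the tissue was digested with collagenase, and live cells were sorted by a viability dye. Transcripts were counted as unique molecular identifiers (UMIs) from 3' droplet libraries, UMIs were summed per library over fibroblast-like or immune-like cells (pseudobulks), and levels are given as UMIs of a gene per 10000 UMIs of the sum.

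Cells rebuild most of their NAD from nicotinamide, the product left when sirtuins and PARP enzymes consume NAD. NAMPT converts nicotinamide to nicotinamide mononucleotide and is regarded as the rate-limiting step of this salvage pathway, NMRK1 enters the pathway from nicotinamide riboside, and NADK phosphorylates NAD to NADP, the precursor of the reducing agent NADPH. SIRT1 and SIRT6 act mainly in the nucleus, SIRT2 mainly in the cytoplasm and SIRT3 in mitochondria, and PARP1 adds ADP-ribose chains to proteins at DNA breaks. In liver, the clock proteins CLOCK and BMAL1 (encoded by Arntl) are known to drive Nampt through E-box elements, and SIRT1 is known to act on clock proteins, so a daily rhythm of these genes has been a question in clock research.

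The genes lie on 6 chromosomes of the GRCm38 assembly (mm10), with positions from the GENCODE annotation of that build. Nampt spans chr12:32819545-32853349 on the plus strand, Nadk chr4:155562378-155591001 on the plus strand and Nmrk1 chr19:18631950-18652428 on the plus strand. Sirt1 spans chr10:63319005-63381704 and Sirt6 chr10:81621785-81627797, both on the minus strand. Sirt2 lies at chr7:28766735-28788661 on the plus strand and Sirt3 at chr7:140863666-140882309 on the minus strand, while Parp1 spans chr1:180568924-180601254 on the plus strand. Protein-coding neighbours overlap Sirt2 (Nfkbib) and Sirt3 (Ric8a and Psmd13) on the opposite strand, and an antisense gene over Sirt1, Gm16145, had 0 UMIs in fibroblasts. On the same strand, the non-coding RNA gene Gdap10 overlaps Nampt and the microRNA gene Mir6904 overlaps Parp1, and neither is among the features of the matrices.

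Promoter windows of RefSeq on the same build, each reaching 250 bases before and 50 bases after a start, were searched on both strands for elements through which clock proteins bind DNA. The 8 genes have 11 such windows among 32851 windows of 27025 genes, because Nadk, Sirt3 and Sirt6 have 2 each. The E-box CACGTG was in 7.2% of all windows and in 1 window each of Nadk, Sirt1 and Parp1. The variant CACGTT (4.7% of windows) and the D-boxes TTATGCAA (0.7%) and TTATGTAA (0.9%) were in none of the 11 windows, and the half-site AGGTCA bound by nuclear receptors (16.3%) was in the Nampt window alone. A match of letters is no evidence of binding, and no match says only that these letters are not in the window. The 250 bases before the start are shown for these 4 genes because their windows hold a match, in capitals, and each runs 5' to 3' on the strand of the gene.
Nampt, chr12:32820085-32820334, plus strand, AGGTCA 151 bases before the start: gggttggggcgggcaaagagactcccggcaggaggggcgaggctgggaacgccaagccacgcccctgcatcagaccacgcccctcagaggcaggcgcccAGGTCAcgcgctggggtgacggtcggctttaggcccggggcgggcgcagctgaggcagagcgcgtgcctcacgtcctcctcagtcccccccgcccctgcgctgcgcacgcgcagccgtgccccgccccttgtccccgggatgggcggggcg
Nadk, second start, chr4:155563565-155563814, plus strand, CACGTG 40 bases before the start: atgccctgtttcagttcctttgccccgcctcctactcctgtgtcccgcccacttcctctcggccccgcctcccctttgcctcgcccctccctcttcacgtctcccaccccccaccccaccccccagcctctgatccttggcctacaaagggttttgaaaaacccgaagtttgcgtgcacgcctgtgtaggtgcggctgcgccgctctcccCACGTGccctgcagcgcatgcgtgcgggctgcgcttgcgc
Sirt1, chr10:63339036-63339285, minus strand, CACGTG 115 and 43 bases before the start: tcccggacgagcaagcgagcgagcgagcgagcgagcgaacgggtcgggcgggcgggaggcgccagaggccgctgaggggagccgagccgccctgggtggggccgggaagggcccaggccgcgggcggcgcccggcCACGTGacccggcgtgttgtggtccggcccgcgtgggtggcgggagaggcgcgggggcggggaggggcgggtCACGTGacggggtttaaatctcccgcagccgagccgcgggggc
Parp1, chr1:180568641-180568890, plus strand, CACGTG 49 bases before the start: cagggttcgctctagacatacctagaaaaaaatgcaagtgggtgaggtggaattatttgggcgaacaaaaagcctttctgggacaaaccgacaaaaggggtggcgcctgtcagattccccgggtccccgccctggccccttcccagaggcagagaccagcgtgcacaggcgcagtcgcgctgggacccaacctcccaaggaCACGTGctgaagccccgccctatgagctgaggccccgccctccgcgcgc

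The 18 libraries held 4850221 to 40827442 UMIs, and 16877 of 23990 barcodes passed the cell filter of the study, 177 to 1998 per library. Clusters of cells were named from marker genes, with the 8 genes left out of the clustering. Of the cells kept, 11634 were fibroblast-like (101 to 1543 per library) and 3372 immune-like (31 to 446). The 6 fibroblast markers, Col1a1, Col1a2, Col3a1, Dcn, Lum and Pdgfra, summed to 636.1 to 1105 UMIs per 10000 in the fibroblast sums and to 2.69 to 33.4 in the immune sums, and the 7 immune markers to 0.0327 to 0.178 and 114.1 to 233.2, with no marker of either list at 0 in the other type. ZT6 replicate 2 and ZT10 replicate 3 shared 89 barcodes, against at most 4 in any other pair of libraries, and all 89 passed the cell filter in ZT10 replicate 3 and 0 in ZT6 replicate 2. ZT14 replicate 1 stood apart by its neutrophil-like cells, 92 of its 273 immune-like cells. The clock genes followed the labelled times, with Arntl highest at ZT22 and lowest at ZT10 in both cell types and Per2 highest at ZT14 and lowest at ZT2. Mice were separate animals, so p-values for rhythm within a cell type measure the spread between mice. Tests between cell types had the mouse as a block, and their p-values measure how the difference within a mouse varies over mice. In summed counts, fewer cells of a subtype and less RNA of a gene per cell cannot be told apart.

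In fibroblasts, 1 of the 8 genes, Nadk, had a 24 h rhythm, with its highest levels early in the dark phase (edgeR quasi-likelihood test, Benjamini-Hochberg adjusted p = 0.012). Over all 12386 genes tested in fibroblasts, 14.2% were called rhythmic by the same test, so 1 of 8 is near the background. By the unadjusted p it was also 1 of 8, where 29.9% of all genes lay under the threshold of 0.05. The adjusted p of the other 7 genes ran from 0.209 for Parp1 to 0.810 for Nmrk1. The median F statistic of the 8 genes was 2.02, beside 1.83 over all genes.

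Nadk, the NAD kinase, had levels in fibroblasts of 0.918, 0.765 and 0.829 UMIs per 10000 in the 3 mice of ZT14. At ZT18 the mice had 0.770, 0.673 and 0.721, and at ZT6 they had 0.631, 0.572 and 0.678. The 3 mice of ZT14 lay above all 3 of each other time except ZT18, where the highest mouse passed the lowest of ZT14. The remaining mice lay close together, at 0.626, 0.623 and 0.643 at ZT2, 0.650, 0.663 and 0.624 at ZT10 and 0.620, 0.655 and 0.688 at ZT22. From ZT6 to ZT14 the mean rose from 0.627 ± 0.053 (SD, n = 3) to 0.838 ± 0.077 (SD, n = 3), or 1.34-fold. The lack of overlap between these times held for the highest and lowest times of 62.7% of the genes tested in fibroblasts. A cosine of 24 h fitted to the 18 levels had a relative amplitude, its amplitude as a percent of the mean level, of 12.9% ± 3.3 (jackknife SE over libraries), with the peak at ZT15.3 ± 0.8 h. Per2, a clock gene that peaks in the evening, had its fitted peak at ZT14.3 in the same fibroblasts, with a relative amplitude of 86.8%.

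**Figure D1:**
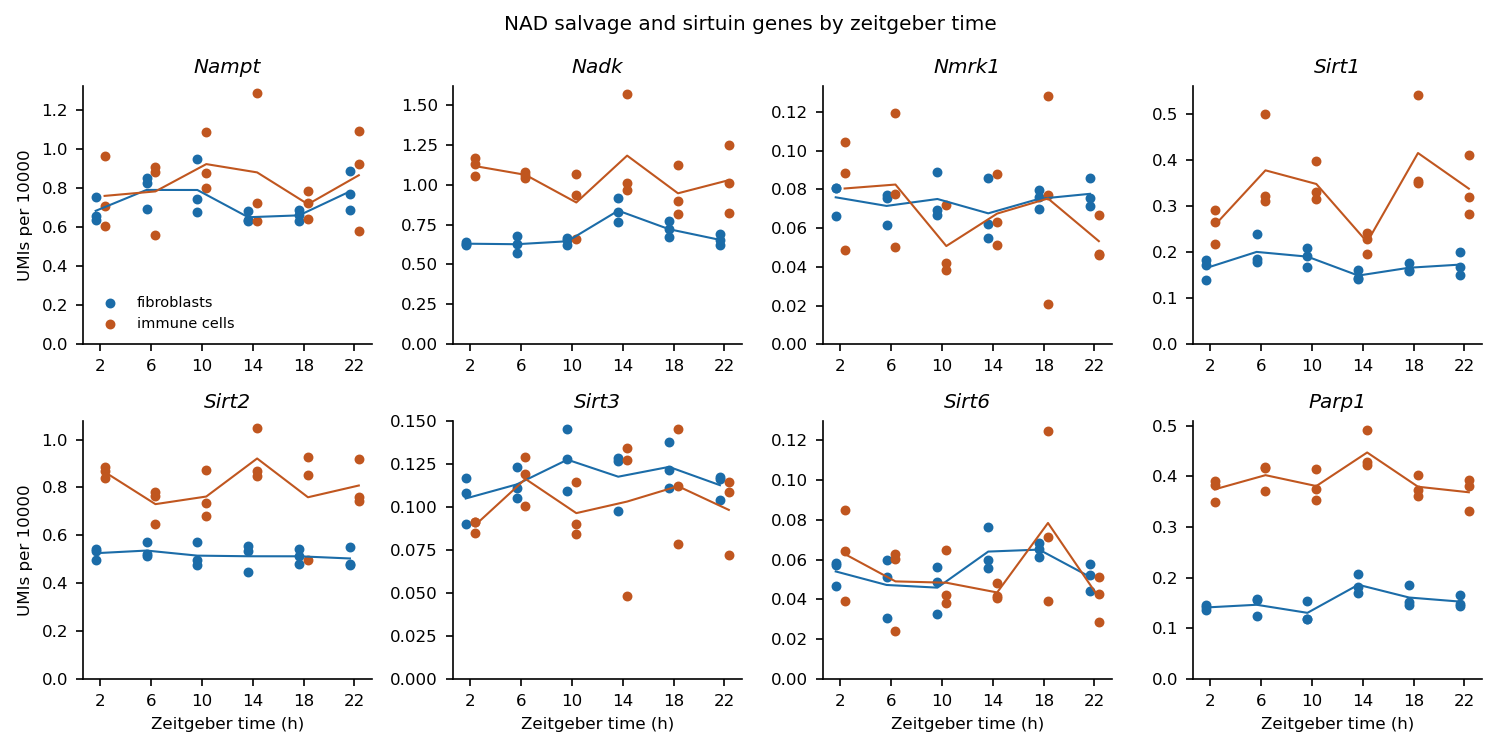
Levels of the 8 genes (UMIs per 10000, vertical axis) against zeitgeber time in hours (horizontal axis), with 1 point per mouse and lines through the means of 3 mice, in fibroblasts (blue) and immune cells (orange). The Nadk points of fibroblasts are highest at ZT14, between 0.765 and 0.918, and the immune Parp1 points lie above the fibroblast points at every time.

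The genes whose levels over the 18 fibroblast sums were most like that of Nadk were Tufm, Fam126a and Glrx5, with Pearson correlations of 0.908, 0.903 and 0.898 on log2 TMM-scaled counts. Their fitted peaks were at ZT15.1, ZT14.3 and ZT14.7, and each was also called rhythmic. The choice by likeness to Nadk makes a near peak and a rhythm call likely, so these are no separate result. Tufm encodes the elongation factor of mitochondrial translation and Glrx5 a mitochondrial iron-sulfur cluster protein. These correlations are across the same 18 libraries and share their totals, and they were not tested.

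By JTK_Cycle, the rhythm test the study used, Nadk in fibroblasts had an unadjusted p of 0.0222, where 8.68% of 22341 genes lay under the threshold of 0.05, and an adjusted p of 0.346, where 0.927% of genes were called. By DESeq2 the adjusted p of Nadk was 0.0009, and with zeitgeber time as 6 separate levels in edgeR it was 0.0307. With each of the 18 libraries left out in turn it stayed between 0.0101 and 0.0395.

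Fibroblast-like cells formed 10 clusters, which differed in their Nadk level, and differences between their time courses were not tested. In 7 clusters at least 12 libraries had 20 or more cells. The mean of Nadk was highest at ZT14 in 5 of these 7, in cluster 6 it was highest at ZT18 (0.820) with ZT14 next (0.814), and in cluster 19 the 6 means lay between 0.653 and 0.689. The ZT14 over ZT6 ratio ran from 1.05 in cluster 19 to 1.51 in cluster 0, and the fitted peaks from ZT12.5 to ZT16.9. In cluster 0 a single library had enough cells at ZT14, so its ratio rests on 1 mouse there. In cluster 19 the ratio rests on 1 mouse at ZT6 and 2 at ZT14.

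Cluster 0, 913 cells led by Tnfaip6, Ctsk, Col1a1, Ptx3, Col1a2 and Cxcl1, had the highest or the lowest median of the 7 clusters in 7 of the 8 genes. Its median Nadk level over 13 libraries was 0.401, the lowest of the 7 clusters, beside 0.738 in cluster 7, the highest. Sirt3 (0.0708), Sirt6 (0.0325), Parp1 (0.108) and Nmrk1 (0.0563) were likewise lowest in cluster 0, whereas Nampt (1.13) and Sirt1 (0.316) were highest there. Cluster 0 made up 3.6 to 7.17% of the fibroblasts in the 3 mice of ZT14 and 6.79 to 19.6% at ZT6. Its share was 3.97 to 15.9% at ZT2, 6.77 to 16.7% at ZT10, 4.84 to 8.91% at ZT18 and 8.14 to 12.2% at ZT22, so mice of ZT2 and ZT18 also had shares as low as those of ZT14. The part of this share in the Nadk level of all fibroblasts was not tested beyond leaving the cluster out. Without cluster 0, an alternative chosen after seeing the data, the adjusted p of Nadk in fibroblasts was 0.0148.

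**Figure D2:**
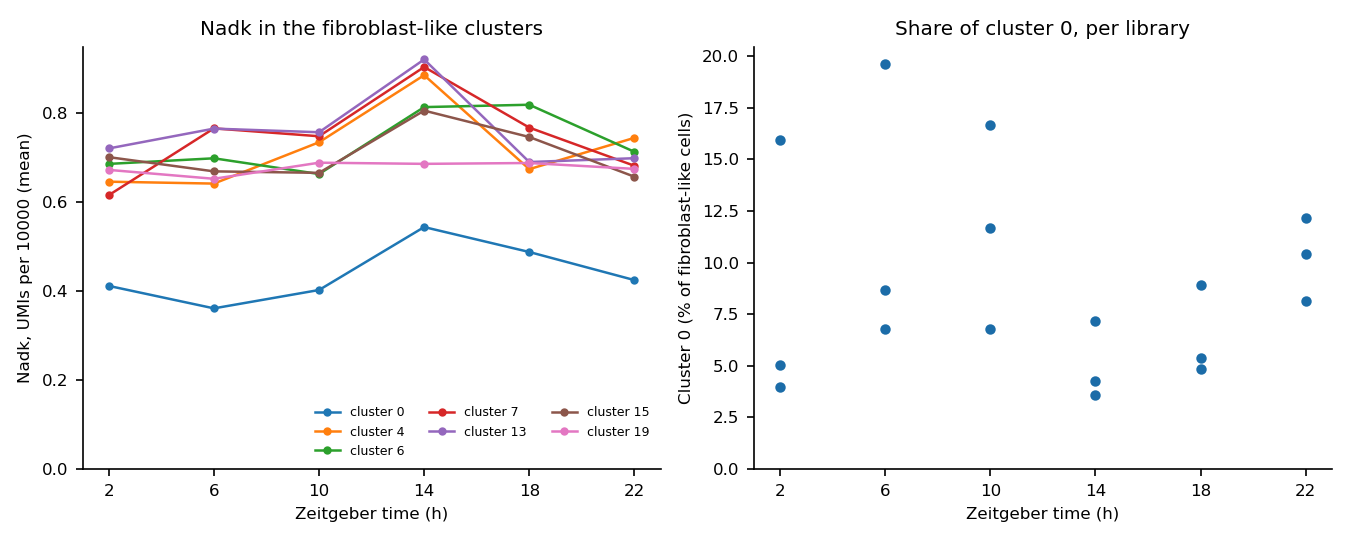
Left, mean Nadk level (UMIs per 10000) against zeitgeber time in hours in the 7 fibroblast-like clusters with enough cells, 1 line per cluster. Right, cluster 0 as a percent of the fibroblast-like cells, 1 point per library; the line of cluster 0 lies lowest on the left, and its share at ZT14 is 3.6 to 7.17%.

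A list of 8 immediate early genes (Fos, Fosb, Jun, Junb, Egr1, Ier2, Atf3 and Zfp36), which respond to tissue dissociation as well as to stimuli in the animal, was also lowest in fibroblasts at ZT14. The 8 genes together had 59.3 to 71.9 UMIs per 10000 at ZT14 and 79.9 to 124.7 at ZT6, with no gene of the list at 0. In the rhythm test 0 of 8 were called, beside 14.2% of all genes. An unadjusted p below the threshold was found for 6 of 8, beside 29.9% of all genes. Across the 18 libraries, which share depth and cell composition, the rank correlation of this sum was -0.672 with Nadk, -0.666 with Sirt6, 0.573 with Sirt1 and 0.511 with Nampt. The part of dissociation in these levels was not tested.

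Nampt, the salvage enzyme with the best known link to the clock, was not called rhythmic in fibroblasts (adjusted p = 0.323). Its levels were 0.827, 0.855 and 0.693 at ZT6, 0.746, 0.949 and 0.679 at ZT10 and 0.772, 0.890 and 0.688 at ZT22. At ZT14 they were 0.681, 0.633 and 0.640 and at ZT18 0.686, 0.662 and 0.635. The mice of ZT14 and ZT18 were close together and low, while ZT6, ZT10 and ZT22 spread over a wider range, with 1 mouse of each near the levels of ZT14 and ZT18. That mouse was replicate 3, from the last day of collection, at each of these times. Replicate 3 was also the lowest at ZT2 and ZT18, but not at ZT14. With the collection day as a block the adjusted p of Nampt was 0.282 (edgeR). The ZT6 mean was 1.21 times the ZT14 mean and the 3 mice of each did not overlap, which held for the highest and lowest times of 62.7% of the genes tested in fibroblasts. The relative amplitude was 6.98% ± 3.65, beside a median of 9.08% over all genes in fibroblasts. In the 7 clusters with enough cells, the ZT14 over ZT6 ratio of Nampt ran from 0.637 in cluster 0 to 1.16 in cluster 6. In cluster 0 the ratio rests on 1 mouse at ZT14, and in cluster 4, the largest, it was 1.09.

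Clock genes in the same fibroblast sums had much larger relative amplitudes, 118% ± 11.4 for Arntl, 128.9% for both Dbp and Nr1d1 and 86.8% for Per2. Among the 8 NAD genes the relative amplitude in fibroblasts ran from 2.34% for Sirt2 to 15.7% ± 6.48 for Sirt6. The 14 clock reference genes were all called rhythmic in fibroblasts, beside 14.2% of all genes, so a rhythm as large as theirs was measurable at this depth.

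Nmrk1, the nicotinamide riboside kinase, was counted with only 1916 UMIs over all fibroblasts, 21 to 216 per library. Its levels ran from 0.0549 to 0.0887, the highest and lowest times overlapped, and its adjusted p for rhythm was 0.810. Its relative amplitude, 4.30% ± 5.01, was below its own error.

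The sirtuins of the list were not called rhythmic in fibroblasts, and the nuclear sirtuins Sirt1 and Sirt6 were lowest and highest at different times. Sirt1 had 0.177, 0.239 and 0.185 in the mice of ZT6 and 0.143, 0.162 and 0.142 in those of ZT14. The means differed 1.34-fold with no overlap, as between the highest and lowest times of 62.7% of the genes tested in fibroblasts. The adjusted p of Sirt1 for rhythm was 0.237 (edgeR). Over the 7 clusters with enough cells, its ZT14 over ZT6 ratio ran from 0.604 in cluster 0 to 2.33 in cluster 19. These ratios rest on 1 mouse at ZT14 in cluster 0 and 1 at ZT6 in cluster 19. Sirt6 had 0.0763, 0.0599 and 0.0559 at ZT14 and 0.0654, 0.0614 and 0.0683 at ZT18, above 0.0327, 0.0487 and 0.0563 at ZT10 except that 1 mouse of ZT14 was just below the highest of ZT10. The mice of ZT18 and ZT10, the highest and lowest times of Sirt6, did not overlap, as in 62.7% of the genes tested. The adjusted p of Sirt6 was 0.367 (edgeR). Sirt6 had the fewest UMIs of the 8 genes in fibroblasts (1433 UMIs, as few as 12 in a library), and its median spread within a time was 15.1% of the mean.

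The mitochondrial sirtuin Sirt3 had fibroblast levels of 0.0902 to 0.1453, with an adjusted p of 0.357. Sirt2, the cytoplasmic sirtuin, was the steadiest of the 8 genes: its 18 fibroblast levels lay between 0.447 and 0.574, a coefficient of variation of 7.05%, and its highest time exceeded its lowest 1.07-fold.

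Parp1 in fibroblasts was highest at ZT14, with 0.182, 0.207 and 0.169, and lowest at ZT10, with 0.118, 0.155 and 0.120. The means differed 1.42-fold and the mice of both times did not overlap, as in 62.7% of the genes tested in fibroblasts. Its mean was highest at ZT14 in 4 of the 7 clusters with enough cells, among them cluster 0 with 1 mouse at ZT14. In cluster 4, the largest, it was highest at ZT6, with a ZT14 over ZT6 ratio of 0.893. The fitted peaks of the 7 clusters lay between ZT0.3 and ZT19.3. In all fibroblasts the cosine peaked at ZT16.5 ± 1.8 h with a relative amplitude of 11.2% ± 4.42, similar in size to that of Nadk. The adjusted p was 0.209 (unadjusted p = 0.0722, edgeR).

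**Figure D3:**
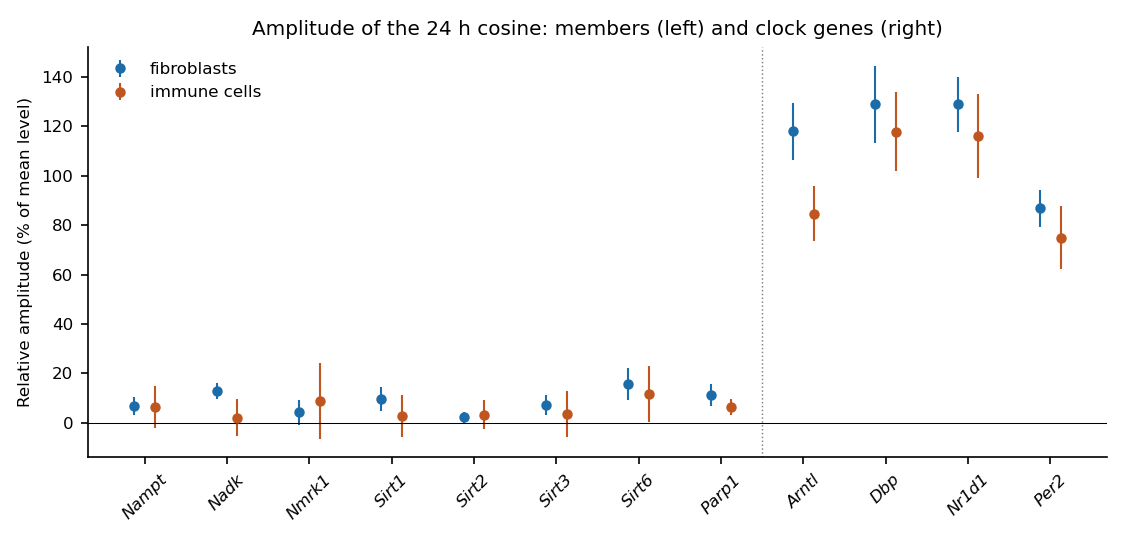
Relative amplitude of the fitted 24 h cosine (percent of the mean level, vertical axis) with jackknife SE over 18 libraries, for the 8 genes (left of the dotted line) and 4 clock genes (right), in fibroblasts (blue) and immune cells (orange). The fibroblast values of the 8 genes lie between 2.34% and 15.7%, those of the clock genes between 86.8% and 128.9%.

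In immune cells none of the 8 genes was called rhythmic, and adjusted p ran from 0.727 for Parp1 to 0.997 for Nadk (edgeR). The background was low as well, with 7 of 10199 genes called (0.0686%), and 8.05% of genes had an unadjusted p below the threshold of 0.05, against 0 of the 8. By JTK_Cycle 2.6% of genes had an unadjusted p below the threshold in immune cells, and 0.00506% an adjusted one, again with 0 of the 8 in either. The immune sums held 481549 to 5762252 UMIs, against 2754419 to 32522554 in fibroblasts. In macrophage-like clusters alone, an alternative chosen after seeing the data, 61 genes (0.714%) were called, and 0 of the 6 of these genes that passed the filter there.

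Nadk in immune cells had its highest mean at ZT14 too, 1.18 against 0.889 at ZT10, the lowest, but the mice of these times overlapped and the rhythm was not called. The mice of ZT14 had 1.57, 0.968 and 1.01 UMIs per 10000, and the mice of ZT2 had 1.05, 1.17 and 1.13. The high mouse of ZT14 was replicate 1, the library with many neutrophil-like cells, and without those cells its level was 1.49. The relative amplitude of the cosine was 2.12% ± 7.61 in immune cells. A difference between the rhythms of both cell types, tested directly as an interaction with the mouse as a block, was not called for Nadk (unadjusted p = 0.0523, adjusted p = 0.604, edgeR) nor for any of the other 7 genes. Over all genes 32 of 13395 (0.239%) were called in this test, and 8.35% had an unadjusted p below 0.05, with 0 of the 8 genes among them.

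Sirt1 in immune cells was lowest at ZT14, with 0.228, 0.242 and 0.195, and highest at ZT18, with 0.540, 0.354 and 0.350. The step between these adjacent times was 1.87-fold with no overlap, as in 41.1% of genes between their highest and lowest times in immune cells. The cosine gave an adjusted p of 0.994, and with zeitgeber time as 6 levels the adjusted p of Sirt1 in immune cells was 0.367. The highest mouse, ZT18 replicate 1, was the one with the fewest immune-like cells, 31, and its level rests on 26 UMIs.

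Parp1 in immune cells was highest at ZT14, as in fibroblasts, with 0.491, 0.423 and 0.428, and the mean of ZT14 was 1.21 times the lowest, that of ZT22. Parp1 had the smallest spread of the 8 genes in immune cells, 9.39% over the 18 mice, and an adjusted p of 0.727. Sirt6 and Nmrk1 had the largest, 43.8% and 42.5%, and as few as 2 and 1 UMIs in a library, so no time course could be read for them in immune cells.

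Between cell types, 4 of the 8 genes were higher in immune cells than in fibroblasts of the same mice (Parp1, Sirt1, Sirt2 and Nadk), 1 was lower and 3 were not called (edgeR, mouse as a block). Differences in level were common, with 84.3% of 13395 genes called, 41.9% higher and 42.4% lower in immune cells, so 5 of 8 is below the background. The median log2 difference of the 8 genes was 0.32, beside -0.013 over all genes. Levels are shares of UMIs, and the median cell held 22277.5 UMIs in fibroblasts and 10974.5 in immune cells. A higher level thus need not be a higher count per cell, which was not tested. Nadk, Sirt2, Sirt1 and Parp1 had 18008, 13610, 4438 and 3954 UMIs in the 11634 fibroblasts. In the 3372 immune cells these genes had 4628, 3572, 1265 and 1680.

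Parp1 had the largest difference of the 8. Its levels in immune cells ran from 0.332 to 0.491, with a median of 0.387, and in fibroblasts from 0.118 to 0.207, with a median of 0.150. The ranges did not overlap, as in 34.5% of genes. The log2 difference was 1.31 (adjusted p = 1.18e-16) and the ratio within a mouse ran from 2.02 to 3.51.

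Sirt1 was 1.88 times as high in immune cells by the means of 0.326 and 0.174, in 18 of 18 mice (log2 difference 0.80, adjusted p = 3.47e-09). Sirt2 was 1.56 times as high, in 17 of 18 mice (0.60, adjusted p = 4.65e-09). Nadk was 1.51 times as high, in 18 of 18 mice (0.53, adjusted p = 9.18e-09). The libraries of the cell types overlapped in range for these 3 genes, although the order held within nearly every mouse.

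Sirt3 was lower in immune cells, with a log2 difference of -0.28 (adjusted p = 0.00242), and was higher there in 4 of 18 mice. Nampt had means of 0.822 in immune cells and 0.727 in fibroblasts and was higher in immune cells in 14 of 18 mice, but was not called (0.11, adjusted p = 0.199). The mean log2 ratio within mice had a 95% interval from -0.02 to 0.31. The call for Nampt depended on the cells and the scaling: without fibroblast cluster 0 its log2 difference was 0.24 (adjusted p = 0.00387), and without TMM scaling 0.17 (adjusted p = 0.0385). Nmrk1 (-0.21, adjusted p = 0.103) and Sirt6 (-0.09, adjusted p = 0.589) were not called, with 95% intervals of the mean log2 ratio from -0.46 to 0.09 and from -0.29 to 0.15. Without the neutrophil-like cells Nmrk1 was called lower in immune cells (-0.29, adjusted p = 0.0303).

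**Figure D4:**
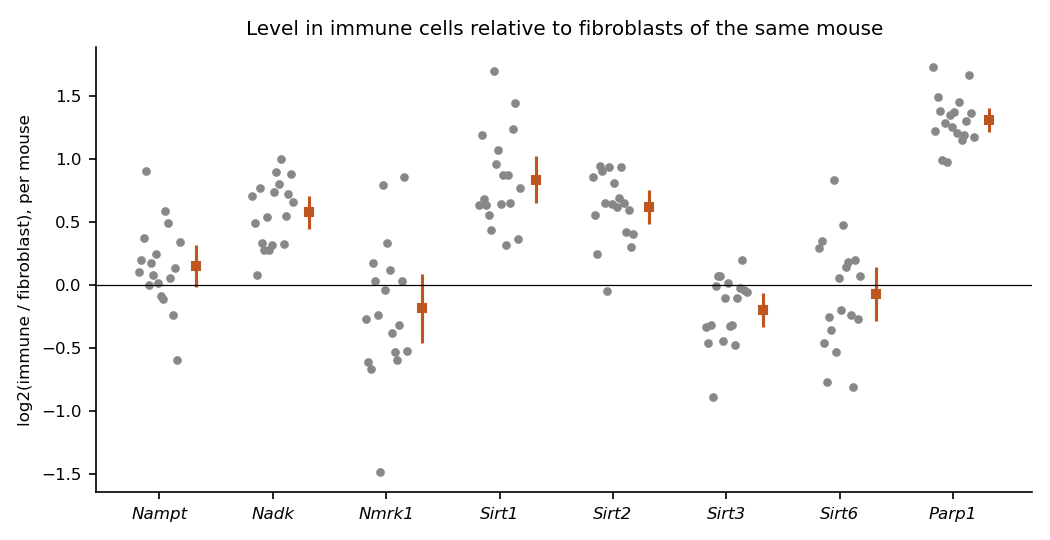
Log2 ratio of the level in immune cells to that in fibroblasts of the same mouse (vertical axis, 0.01 per 10000 added to both), for the 8 genes, with 1 grey point per mouse and an orange square for the mean with its 95% interval. All 18 points lie above 0 for Parp1, Sirt1 and Nadk, and 17 of 18 for Sirt2.

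Immune-like cells were a mixture, and the genes differed strongly between its classes. Counts were summed over all libraries here, so the exact Poisson 95% intervals cover counting error only and not the spread between mice. Macrophage-like cells (1708 cells) had 1.205 UMIs of Nadk per 10000 (1.16 to 1.25), and cells with macrophage and monocyte markers (839) had 1.12 (1.06 to 1.18). Dendritic-like cells had 0.752 (0.675 to 0.835) and cells with T and NK markers 0.357 (0.284 to 0.443). Nadk was thus at its highest in the phagocytic classes, with the lymphoid level below that of fibroblasts (0.687).

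Neutrophil-like cells (148 cells, led by S100a9 and S100a8) had the highest Nadk level of these classes, 2.39 (2.04 to 2.79), and 1.31 of Nampt (1.06 to 1.62). These are shares of a small total, with a median of 4349.5 UMIs per cell, beside 12025 in macrophage-like cells. Counts per cell were not compared. Parp1, Sirt3 and Sirt6 each had 0 of 676889 UMIs in neutrophil-like cells. This allows a level of up to 0.0443 per 10000, taking 3 UMIs as the limit for a count of 0. That limit is below the Parp1 level of each other class shown, the lowest of which was 0.088 in muscle-like cells. Most of these cells, 92 of 148, came from 1 mouse, ZT14 replicate 1, where Nadk was at 2.20 and Nampt at 1.38 in them. The other immune-like cells of that mouse had 1.49 of Nadk and 1.28 of Nampt, so its Nampt level was high in both. No other library had enough of these cells for a level of its own.

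Nampt was low in cells with T and NK markers, at 0.235 (0.176 to 0.306), and high in those with macrophage and monocyte markers, at 1.06 (1.00 to 1.12). Sirt3 was at 0.083 in macrophage-like and 0.079 in macrophage- and monocyte-like cells, below the 0.116 of fibroblasts. In dendritic-like cells it was above fibroblasts, at 0.175 (0.139 to 0.217), and in T and NK cells at 0.152 (0.106 to 0.212). Sirt2 was at 0.948 in macrophage-like cells, but in T and NK cells at 0.417 (0.338 to 0.510), below the 0.519 of fibroblasts. Parp1 was similar in macrophage-like (0.381), macrophage- and monocyte-like (0.403), dendritic-like (0.453) and T and NK cells (0.422), each above the 0.151 of fibroblasts. In the 38 B-like cells Parp1 was at 1.02 (0.7004 to 1.43). In fibroblast cluster 23, 70 cells led by Krtdap and Lgals7 and then by cycling genes such as Top2a and Mki67, Parp1 was at 0.357 (0.281 to 0.447). At a resolution of 2, Lgals7 led 17 keratinocyte-like cells, and Top2a and Mki67 were top genes of 88 immune-like cells. Whether cluster 23 is a mixture was not tested.

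Muscle-like cells (732) were below fibroblasts in Nadk, Sirt1 and Parp1, which were higher in immune cells. Nadk was at 0.088 (0.0668 to 0.1137) in them and Sirt1 at 0.0182 from 12 UMIs, whereas Sirt2 was at 0.743, above the 0.519 of fibroblasts. In mast-like cells (54) Nadk had 1 UMI, for a level of 0.0339 (0.000857 to 0.189), and Nmrk1 was at 0.406 from 12 UMIs.

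**Figure D5:**
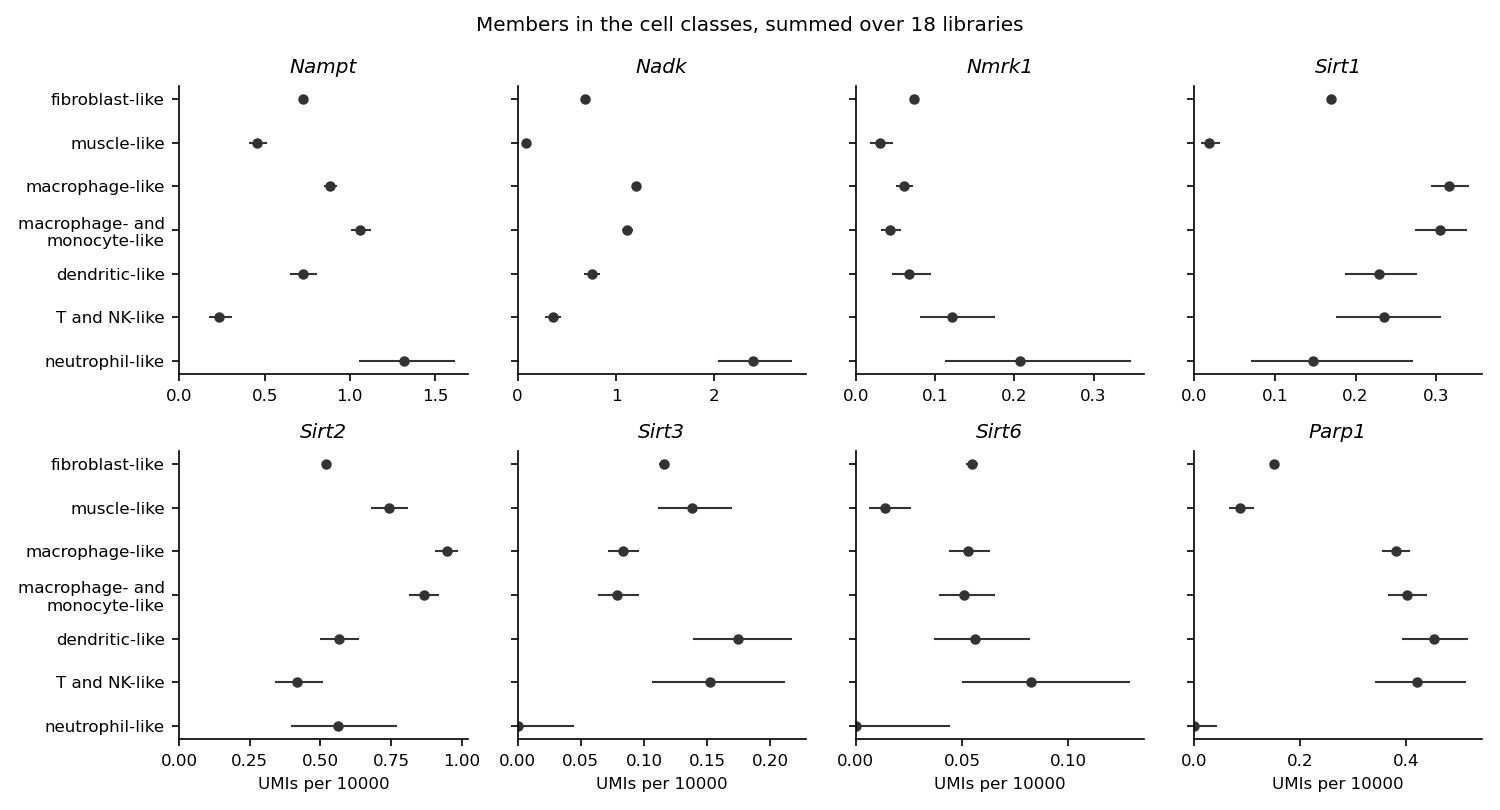
Level of each of the 8 genes (UMIs per 10000, horizontal axis) in 7 cell classes (vertical axis), summed over 18 libraries, with exact Poisson 95% intervals that cover counting error only; for a count of 0 the bar reaches the limit of 3 UMIs. Nadk and Nampt are highest in neutrophil-like cells, and Parp1, Sirt3 and Sirt6 are at 0 in them. Most of these cells came from 1 mouse, and their Nampt interval overlaps that of macrophage- and monocyte-like cells.

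Of the 21 genes of a list for NAD synthesis, Nampt, Nadk and Nmrk1 among them, 14 could be tested for rhythm in fibroblasts and 3 were called (Tdo2, Nadk and Nadk2), beside 14.2% of all genes. Tdo2, the first enzyme of tryptophan breakdown towards NAD, had the largest rhythm, from 0.235 ± 0.021 at ZT14 to 0.825 ± 0.062 at ZT22 (SD, n = 3), a 3.51-fold rise with a peak at ZT1.0 (adjusted p = 0.00562). Nadk2, the mitochondrial NAD kinase, peaked at ZT2.6 with a relative amplitude of 12.2% (adjusted p = 0.0444), nearly opposite to Nadk. Both NAD kinases were thus called in fibroblasts with similar relative amplitudes and peaks at different parts of the day. In immune cells 0 of 11 were called, with 1 unadjusted p below the threshold, beside 0.0686% and 8.05% of all genes.

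Between cell types, 12 of 17 genes of NAD synthesis were called, 5 higher and 7 lower in immune cells, a smaller share than the 84.3% of all genes. Enzymes that follow Tdo2 in the route from tryptophan differed in direction. Kmo had 1324 UMIs in immune cells and 8 in fibroblasts, Haao 252 and 38, and Kynu 76 and 29. UMIs given here and for the lists below are totals and not levels. They come from 42537779 UMIs in immune cells and 262244519 in fibroblasts, so their ratios are not ratios of levels. Afmid was also higher in immune cells (log2 difference 0.68, adjusted p = 0.0128, edgeR), whereas Qprt was lower (-1.39, adjusted p = 7.2e-06). Tdo2 itself had 13294 UMIs in fibroblasts and 47 in immune cells. Nt5e, which releases nucleosides outside the cell (log2 difference -4.30), Pnp, a phosphorylase of nucleosides (-1.71), and Nmnat2, a NAD-forming adenylyltransferase (500 UMIs in fibroblasts, 2 in immune cells), were lower in immune cells. In these clearly divided genes the fitted difference depends on the small counts of the low type.

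All 4 called genes of the list for nicotinamide clearance, transport and redox were lower in immune cells, of 6 tested (84.3% of all genes were called, 42.4% lower), and the list's median log2 difference was -2.73. Nnmt, which methylates nicotinamide for excretion, had 13384 UMIs in fibroblasts and 69 in immune cells, and Aox1, which oxidises the methylated form, 3862 and 16. Slc12a8 (1075 and 4 UMIs) was also lower, and Slc25a51, the mitochondrial NAD carrier, fell by 0.31 on the log2 scale (adjusted p = 0.000308). None of the 7 was called rhythmic in fibroblasts and 0 had an unadjusted p below the threshold, beside 14.2% and 29.9% of all genes.

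Among the genes that consume NAD, 16 of 17 PARP family and glycohydrolase genes were called between cell types, 12 higher in immune cells and 4 lower, beside 84.3% of all genes called, 41.9% higher and 42.4% lower. The NAD glycohydrolases Cd38 (6633 UMIs in immune cells, 99 in fibroblasts) and Bst1 (2459 and 11) were the most divided. Parp14 and Parp2 were higher by 1.56 and 0.99 on the log2 scale, and Parp3 fell by 1.63. In fibroblasts 0 of 16 were called rhythmic by edgeR, with 1 at an unadjusted p below the threshold, beside 14.2% and 29.9% of all genes. Of 6 genes that remove ADP-ribose, 4 were called between cell types, where 84.3% of all genes were: Adprh (-0.94), Macrod2 (-1.57) and Adprhl2 (-0.54) were lower in immune cells, and Oard1 (0.18) was higher.

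The remaining sirtuins added a pair of clear level differences. Sirt7, a nucleolar sirtuin, was higher in immune cells by 1.41 on the log2 scale (adjusted p = 5.15e-16), and Sirt5, a mitochondrial one, fell by 1.40 (adjusted p = 1.43e-08). Sirt4 was not called (-0.29, adjusted p = 0.156). Of the 7 sirtuins, 5 were called between cell types, 3 higher and 2 lower, where 84.3% of all genes were called. In fibroblasts 0 of 7 were called rhythmic and 0 had an unadjusted p below the threshold, beside 14.2% and 29.9% of all genes.

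Of the known partners and targets of sirtuins, 6 of 12 tested were called rhythmic in fibroblasts, 3 of them the clock genes Arntl, Clock and Per2, beside 14.2% of all genes. The others were Idh2, a mitochondrial enzyme that SIRT3 deacetylates, with a peak at ZT5.2 and a relative amplitude of 19% (adjusted p = 0.00825), Rps19bp1, which encodes an activator of SIRT1, at ZT16.9 and 16.4% (adjusted p = 0.0097), and Hic1, a repressor of Sirt1 transcription, at ZT16.2 and 24.3% (adjusted p = 0.0125). The Sirt1 level in fibroblasts was at its lowest at ZT14 and Hic1 at its highest there, with means of 0.149 and 0.738. The rhythm of Sirt1 was not called, and a relation between both genes was not tested. In immune cells 1 of 12, Arntl, was called, beside 0.0686% of all genes. Between cell types 11 of 13 were called (84.3% of all genes), 5 higher and 6 lower in immune cells, among them Acss1 (1100 UMIs in immune cells, 45 in fibroblasts), Idh2 (1.50), Sod2 (0.37), Foxo1 (-1.93) and Hic1 (15352 UMIs in fibroblasts, 79 in immune cells).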

How the data were processed

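Reads of 3' droplet libraries were aligned to mm10 by the authors, and the deposited counts are the raw UMIs of each gene in each barcode from Cell Ranger 3.1.0, in 1 matrix per library. The cell filter of the study was applied here: 850 to 7800 genes per barcode and less than 13% of UMIs from mitochondria. On a log scale of counts per 10000, the 2000 most variable genes, with the NAD, sirtuin and clock genes left out, gave 30 principal components, 15 neighbours per cell and Leiden clusters at a resolution of 0.8 (scanpy 1.11.5, leidenalg 0.10.2, igraph 0.11.9). A cluster was named where at least 3 markers were detected, in 25% of its cells and at 10% of the level of the highest cluster. It stayed unnamed where its 10 top genes held more markers of another class than of its own. The clusters left unnamed, 1112 cells, included 782 led by haemoglobin genes and 263 led by interferon-induced genes. Both of these clusters carried all 6 fibroblast markers and were left out of the fibroblasts by the rule on top genes. Names were rebuilt and may differ from those of the study. Doublets were not removed, and leaving out those with the highest Scrublet scores was an alternative.

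For each library, the UMIs of a cell type were added up. A 24 h cosine was tested with edgeR 4.0.16 in R 4.3.3 (quasi-likelihood test, TMM, filterByExpr, Benjamini-Hochberg adjustment over all genes tested, threshold 0.05), the difference in rhythm as an interaction, and the difference in level as a cell type term, both with the library as a block. DESeq2 1.42.0 and an own implementation of JTK_Cycle (18 templates, with periods from 20 to 28 h) were alternatives. The scripts were tested on simulated data. Amplitudes and peaks come from a cosine fitted by least squares. Python 3.11.15 with numpy 2.4.6, scipy 1.17.1 and pandas 2.3.3 was used. Promoter windows are those of RefSeq on GRCm38.

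Replicate numbers in the labels mark the day of collection. Samples with the same number correlated in their deviations at -0.163 to 0.362 in fibroblasts (median 0.023) and -0.266 to 0.259 in immune cells (median 0.04). Samples with different numbers correlated at -0.404 to 0.391 (median -0.013) and -0.317 to 0.298 (median -0.023).

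The 8 genes, the pathway lists and the motifs were chosen with earlier results of these data known. Beyond the 8, the text names the called genes of each list, at most 6 with the smallest p per list and comparison, the 3 genes most like a rhythmic gene of the 8, and 4 clock genes. Fibroblast cluster 0, cluster 23, the neutrophil-like cells and genes named as not called were picked after their values were seen. So were Kynu, Qprt and Afmid, which lie beyond the 6 of the NAD synthesis list between cell types. Naprt and Nadsyn1 were also called there and are not described.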

Additional observations from a re-analysis of the deposited data

Results flagged for a closer look

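None of the 8 NAD genes had a rhythm that differed between immune cells and fibroblasts by the interaction test. Of the 14 clock reference genes 4 did, beside 0.239% of all genes. Ciart, a repressor of the clock, had a relative amplitude of 143.6% ± 27.4 in fibroblasts and 3.84% ± 10.5 in immune cells. The adjusted p of the difference was 4.84e-05 (edgeR). The mean level of Ciart was 0.0244 in fibroblasts and 0.267 in immune cells. In units of the level, its amplitude was 0.0351 ± 0.0078 in fibroblasts and 0.0103 ± 0.0287 in immune cells. The error in immune cells thus includes an amplitude as large as that of fibroblasts. A difference in amplitude in these units was not tested. Nfil3, a repressor acting at D-boxes, had 100.8% in fibroblasts, with a peak at ZT22.3, and 11.5% in immune cells (adjusted p = 0.000229). Cry1, a repressor of CLOCK and BMAL1, had 94.8% with a peak at ZT19.4 in fibroblasts and 49.1% with a peak at ZT16.4 in immune cells (adjusted p = 0.0252). Bhlhe41, which binds E-boxes, had 94.6% in fibroblasts and 37.6% in immune cells (adjusted p = 0.043).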

How the results depend on the processing

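The rhythm of Nadk in fibroblasts was called, and no other of the 8 genes, with DESeq2, without TMM, without a filter on low counts, with clusters at a resolution of 2, with cells assigned by marker UMIs alone, without likely doublets, without fibroblast cluster 0, with zeitgeber time as 6 levels and with each library left out. By JTK_Cycle, Nadk in fibroblasts was under the threshold by the unadjusted p (0.0222) but not by the adjusted p (0.346). The number of genes called in fibroblasts by edgeR was 1761, and 1116 with zeitgeber time as 6 levels, and 1306 to 1829 with a library left out. In immune cells 7 genes were called, 29 by DESeq2, 18 without a filter, 61 in macrophage-like clusters alone, 514 by the unadjusted p of JTK_Cycle and 7 to 15 with a library left out (14 without ZT14 replicate 1, 15 without ZT2 replicate 3). Differences in rhythm were called for 32 genes, 101 by DESeq2, 58 with macrophage-like clusters alone and 16 to 40 with a library left out (16 without ZT2 replicate 2, 20 without ZT2 replicate 1, 21 without ZT14 replicate 2 or ZT22 replicate 1). The causes were not tested. None of these alternatives called 1 of the 8 genes in either comparison, although 5 of the 8 in immune cells and 7 of the 8 for the difference had an adjusted p from DESeq2, and 6 could be tested for rhythm in macrophage-like clusters.

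The differences in level called for Parp1, Sirt1, Sirt2, Nadk and Sirt3 were called with the same sign under every alternative run. Besides the calls of Nampt and Nmrk1 given with their levels, Nmrk1 was called in macrophage-like clusters (-0.35, adjusted p = 0.0474), without a filter (-0.30, adjusted p = 0.0294) and with 4 of the 18 libraries left out in turn, at adjusted p of 0.0227 to 0.0499. Without a filter the median log2 difference of all genes moved from -0.013 to -0.22. With a library left out, 11128 to 11570 genes and 5 to 6 of the 8 were called.

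With the collection day as a replicate block, the adjusted p of Nadk in fibroblasts was 0.00944, 1809 genes were called in fibroblasts and 8 in immune cells, and 30 genes differed in rhythm. The block changed no call of the 8 genes. In immune cells depth limits what can be seen for Sirt6 and Nmrk1, with 229 and 275 UMIs in all. The alternatives that changed the set of immune cells or left out cluster 0 were chosen after seeing the data.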

Other observations

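Some cells belonged to neither comparison. The unnamed cluster of 263 cells led by the interferon-induced genes Ifit1, Iigp1 and Ifit3 carried all 6 fibroblast markers and had 1.26 UMIs of Nampt per 10000, against 0.725 in fibroblast-like cells summed over all libraries. In the 5 libraries with enough of these cells Nampt ran from 0.943 to 1.65. Its Nadk level was 0.757, beside 0.687. The unnamed cluster of 782 cells led by haemoglobin genes also carried all 6 fibroblast markers and had 0.547 of Nampt and 0.709 of Nadk. Neither cluster was tested.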
